A study of Mus musculus with 12 samples.

Results

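All 12 libraries of this mouse heart RNA-seq series entered the comparison described here, which sets the 9 libraries from hearts infused with angiotensin II (Ang II) against the 3 from hearts infused with saline. Membership was taken from the sample titles, and no measured value was used to choose a library. The control titles read "Ang II control" and do not name saline. Those libraries were taken as the saline group named in the series design. Every mouse was a male of the C57BL/6 strain, aged 8 weeks, with a subcutaneous osmotic pump for 28 days. The saline control group had 3 libraries. The infused libraries were 3 with Ang II and vehicle (called Ang II alone), 3 with Ang II and oral EHP-101 at 20 mg/kg, and 3 with Ang II and losartan at 0.6 g/L in the drinking water. Treatments were given in the last 2 weeks of the infusion. Each infused group had the same weight in the contrast, so a log2 fold change is the mean of the 3 infused group means on the log2 scale minus the control mean. Neither compound was given without Ang II in these libraries, so in the treated groups an effect of the compound and an effect of the infusion cannot be told apart. The labels do not say that each library was a separate animal, so p-values rest on sample-to-sample spread that could be purely technical.

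Ang II is the peptide hormone of the renin-angiotensin system. Through the AT1 receptor, a Gq-coupled receptor, it constricts vessels, raises blood pressure and acts on heart muscle and on cardiac fibroblasts. Infused hearts are known for enlarged cardiomyocytes and for interstitial and perivascular fibrosis, in which activated fibroblasts lay down collagens, matricellular proteins and the enzymes that crosslink them. Losartan blocks AT1, and EHP-101 is an oral form of a cannabidiol derivative that acts on PPARγ and the cannabinoid receptor CB2.

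Total counts were 22155418 to 24040516 per library. The library labelled Control replicate 2 stood apart, at -84.37 on the first principal component (35.27% of the variance) against -12.72 to 32.41 for the other 11 libraries, and values without it stand beside the genes called and beside each median or gene value of the contrast that it moves by over 1.5 times or reverses. Heart muscle was present in every library: the summed level of 16 sarcomere genes was 78737 to 93566 reads scaled to library size (CPM) in the control libraries and 68822 to 98760 CPM in the infused libraries. Markers of atrial tissue varied within groups and between them. Their summed level over 15 genes, none of them at 0, was 1502 to 4245 CPM in the control libraries and 918 to 5359 CPM in the infused libraries, and 0 of the 15 passed the test in either direction. The summed level was 3364 to 5359 CPM with Ang II alone, 1946 to 2517 CPM with EHP-101 and 918 to 4352 CPM with losartan. Losartan replicate 3 was the lowest library of all. The part of this variation in the results was not tested beyond the fit with the atrial score given with the counts below.

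Genes of the extracellular matrix made up most of the 21 genes called in edgeR between infused and saline hearts. That short list moved with the setting, and the makeup of the longer lists from other settings is not described here. Of 15336 genes tested, 21 had an adjusted p under 0.05 by edgeR's quasi-likelihood test (0.137%), which is the meaning of "passed" below. Of these, 18 were higher in the infused hearts (0.117%) and 3 were lower (0.0196%). The 18 that rose include genes for matricellular and matrix glycoproteins (Cilp, Thbs4, Tnc, Postn, Cthrc1, Itgbl1 and Frem1), collagen chains (Col8a1 and Col5a2), elastic fibre genes (Eln and Ltbp2), a small proteoglycan (Aspn), collagen crosslinking enzymes (Lox and Loxl3) and a matrix protease (Mmp2), and the signalling genes Fstl1 and Dio2. The 3 that fell were Ano10, Armh4 and Helt. For 17 of the 18 higher genes all 9 infused libraries lay above all 3 control libraries, and for 3 of the 3 lower genes all 9 lay below. Over all tested genes, 353 lay wholly above the control libraries (2.30%) and 331 wholly below (2.16%).

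**Figure D1:**
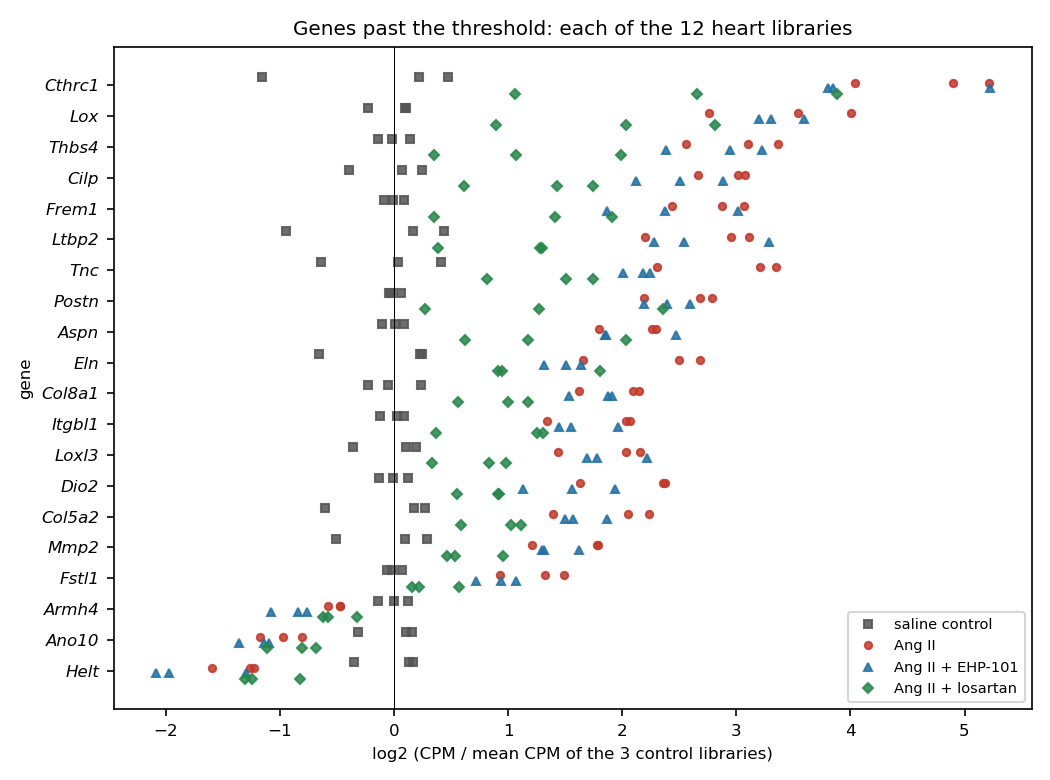
Level of 20 of the 21 genes past the threshold in each of the 12 heart libraries, as log2 of CPM over the mean CPM of the 3 control libraries. Each point is 1 library, with squares for saline control, circles for Ang II alone, triangles for Ang II with EHP-101 and diamonds for Ang II with losartan. Ltbp2 is the single higher gene in which an infused library, losartan replicate 3 at 18.7 CPM, lies below a control library.

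The calls rested on few control libraries. Without Control replicate 1 no gene passed in either direction (0 of the 21, with 3473 genes at an unadjusted p under 0.05), and Cilp, Col8a1 and Ano10 then each had an adjusted p of 0.0698. DESeq2, run on all libraries, called 303 genes higher and 180 lower, which included all 21. Without Control replicate 2 the counts were 4 higher and 2 lower, and without Control replicate 3 they were 4 higher and 1 lower, with 4 and 5 of the 21 genes among them. Of the 21, 10 were called without Ang II replicate 1, 20 without replicate 2 and 11 without replicate 3. They numbered 12, 18 and 12 without EHP-101 replicates 1, 2 and 3, and 14, 12 and 21 without losartan replicates 1, 2 and 3. Leaving out losartan replicate 3 raised the counts to 39 higher and 4 lower. A model with the 9 infused libraries as 1 group, in which differences between treatments count as spread, called 0 higher genes and 1 lower gene, Ano10 (adjusted p = 0.0346), with 3255 genes at an unadjusted p under 0.05. With the atrial score as a covariate the counts were 193 higher and 77 lower.

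**Figure D2:**
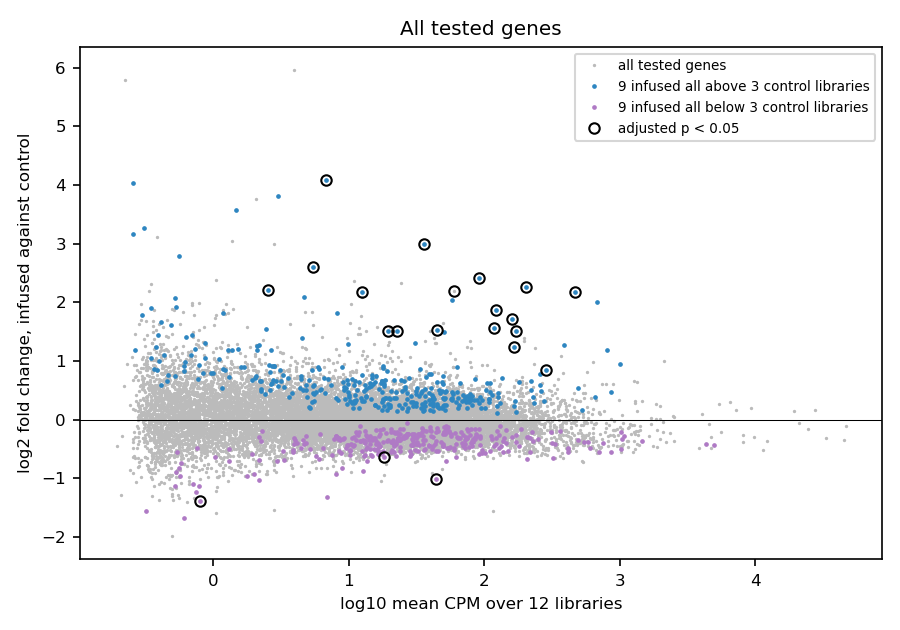
All 15336 tested genes, with log10 of the mean CPM over 12 libraries on the x axis and the log2 fold change of infused against control hearts on the y axis. Blue and purple points are the 353 and 331 genes whose 9 infused libraries lie wholly above or below the 3 control libraries, and open circles are the 21 genes past an adjusted p of 0.05.

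Upstream sequences are shown for 4 of the genes that changed, since genes that moved together are often compared by the DNA before their start. RefSeq promoters on GRCm38.p6 matched 14 of the 21 genes, with 17 start sites, and the 250 bases before each start were searched. The motifs were the TATA box (TATAAA, given strand only), the TEAD site (GGAATG, both strands) and the AP-1 site (TGANTCA, both strands). The TATA box letters were in 5 of the 17 and in 7.59% of 32851 promoters. Of these 5, 2 are overlapping windows of Tnc that hold the same match. The matches lay at -26 in Postn and -30 in Dio2. Those farther upstream were at -207 in Aspn and at -205 and -126 in the windows of Tnc. The TEAD site was in 2 of the 17 and in 12.6% of all promoters, and the AP-1 site in 0 and 6.75%. A match is a description of letters, and its absence says only that the letters are not in this window. Capitals mark the matches below, in sequences that end with the base before the start. Postn, chr3:54360857-54361106 on the plus strand, is shown for its TATA box at -26. Dio2, chr12:90739039-90739288 on the minus strand, has a TATA box at -30 directly after a TEAD match at -36. Thbs4, chr13:92794819-92795068 on the minus strand, has 2 overlapping TEAD matches, and Ano10, chr9:122294424-122294673 on the minus strand, is shown as a gene that fell and has no match.
Postn: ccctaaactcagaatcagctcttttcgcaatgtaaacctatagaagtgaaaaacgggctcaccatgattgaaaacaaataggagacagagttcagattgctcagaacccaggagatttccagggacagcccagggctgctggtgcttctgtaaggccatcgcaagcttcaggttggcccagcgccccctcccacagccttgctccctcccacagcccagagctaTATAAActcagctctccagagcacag
Dio2: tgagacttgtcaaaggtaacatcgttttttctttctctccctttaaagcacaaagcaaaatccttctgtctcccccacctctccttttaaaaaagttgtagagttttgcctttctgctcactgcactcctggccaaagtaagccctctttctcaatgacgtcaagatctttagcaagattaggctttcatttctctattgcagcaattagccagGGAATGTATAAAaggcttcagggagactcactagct
Thbs4: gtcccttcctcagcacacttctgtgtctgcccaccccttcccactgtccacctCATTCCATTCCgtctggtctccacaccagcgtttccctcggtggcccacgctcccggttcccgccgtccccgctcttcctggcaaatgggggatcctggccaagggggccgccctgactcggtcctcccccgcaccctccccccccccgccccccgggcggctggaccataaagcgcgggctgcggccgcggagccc
Ano10: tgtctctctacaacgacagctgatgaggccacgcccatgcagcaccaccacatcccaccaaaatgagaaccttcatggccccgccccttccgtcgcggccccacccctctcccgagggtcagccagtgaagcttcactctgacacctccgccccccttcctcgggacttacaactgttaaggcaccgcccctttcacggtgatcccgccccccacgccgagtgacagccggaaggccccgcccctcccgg

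Matricellular genes encode secreted proteins that bind the matrix and cells without forming fibres. Cilp, a glycoprotein of cartilage and fibrotic tissue, had 56.6, 36.4 and 50.1 CPM in the control libraries. It had 404, 303 and 385 CPM with Ang II alone, 272, 207 and 351 CPM with EHP-101, and 160, 129 and 73 CPM with losartan. The infused libraries did not overlap the control libraries, and losartan replicate 3 was the lowest of them. Cilp rose 4.82-fold over the 9 infused hearts (log2 fold change 2.27 ± 0.26 SE, adjusted p = 0.00505, edgeR), and without Control replicate 2 the log2 value was 2.11 with an adjusted p of 0.0627. Thbs4, a thrombospondin, had 21.1, 17.4 and 18.9 CPM in the control libraries. Its infused values were 165, 113 and 197 CPM with Ang II alone, 148, 99.7 and 178 CPM with EHP-101, and 76.2, 40.2 and 24.5 CPM with losartan. It rose 5.31-fold (log2 fold change 2.41 ± 0.33, adjusted p = 0.0111), again with losartan replicate 3 nearest to the control libraries, and had an adjusted p of 0.204 without Control replicate 2.

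Periostin, Postn, is the usual marker of activated fibroblasts. It had 121, 128 and 120 CPM in the control libraries, against 790, 560 and 847 CPM with Ang II alone and 561, 647 and 741 CPM with EHP-101. With losartan it had 630, 297 and 149 CPM, a spread of 359 ± 247 CPM (SD, n = 3) that covered most of the distance between the control and Ang II hearts. Postn rose 4.52-fold (log2 fold change 2.18 ± 0.35, adjusted p = 0.0324) and passed without 3 of the 12 libraries, with an adjusted p of 0.242 without Control replicate 2. Tenascin-C, Tnc, had 3.17, 1.99 and 4.13 CPM in the control libraries. It had 28.6, 15.3 and 31.6 CPM with Ang II alone, 14.7, 12.4 and 14.1 CPM with EHP-101, and 10.4, 8.82 and 5.44 CPM with losartan, each above every control library. Tnc rose 4.52-fold (adjusted p = 0.0111), and without Control replicate 2 its adjusted p was 0.103.

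The remaining genes of this class were lower in the control hearts or changed less. Cthrc1, a secreted protein of injured vessels and fibrotic tissue, was near the limit of detection in the control libraries at 0.543, 0.646 and 0.209 CPM. It had 6.5 to 17.4 CPM in the 6 libraries with Ang II alone or EHP-101, and 6.88, 2.93 and 0.97 CPM with losartan. Its log2 fold change was 4.08 ± 0.68 (adjusted p = 0.0388), the largest of the 21 genes, from as few as 5 reads in a library. Frem1, a protein of the basement membrane, had 0.592 to 0.668 CPM in the control libraries and 0.801 to 5.28 CPM in the infused libraries (4.63-fold, adjusted p = 0.0376). Itgbl1, a secreted protein with integrin-like repeats, had 16.9 to 19.5 CPM in the control libraries and 46.7 to 77.2 CPM with Ang II alone or EHP-101. With losartan it had 43.9, 45.4 and 23.7 CPM, and over all infused hearts it rose 2.87-fold (adjusted p = 0.0197). Without Control replicate 2 the adjusted p values of Cthrc1, Frem1 and Itgbl1 were 0.25, 0.163 and 0.194.

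The chain Col8a1 forms network collagen of vessel walls, and Col5a2 is built into collagen fibrils. Col8a1 had 39.3, 44.2 and 54.2 CPM in the control libraries. It had 196, 141 and 204 CPM with Ang II alone, 133, 168 and 172 CPM with EHP-101, and 104, 91.6 and 67.6 CPM with losartan. All 9 infused libraries lay above the control libraries, and Col8a1 rose 2.95-fold (log2 fold change 1.56 ± 0.18, 95% interval 1.18 to 1.94, adjusted p = 0.00505). It passed without each of 11 libraries, also without Control replicate 2 (adjusted p = 0.0326), and did not pass without Control replicate 1 (adjusted p = 0.0698). Col5a2 had 78.5, 45.6 and 84 CPM in the control libraries and 104 to 328 CPM in the infused libraries. It rose 2.84-fold (adjusted p = 0.0247), and without Control replicate 2, its lowest library, the log2 fold change went from 1.51 to 1.28 (adjusted p = 0.0934).

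The wider collagen list showed the same direction with fewer calls. Of 20 collagen chains tested, 2 rose and 0 fell. Wholly above the control libraries lay 5 of the 20, beside 2.30% of all tested genes. The list's median log2 fold change was 1.03, against -0.02 over all tested genes, and 0.68 without Control replicate 2. Its medians in the groups, which share the control libraries, were 1.49 with Ang II alone, 0.95 with EHP-101 and 0.63 with losartan. Col12a1, which binds to fibrils, stood at 2.32 on the log2 scale (adjusted p = 0.0612). Col3a1 and Col1a1, the main fibril chains of the heart, had 1.19 (adjusted p = 0.114) and 1.22 (adjusted p = 0.143). Col3a1 had 391 ± 127 CPM (SD, n = 3) in the control libraries and 512 to 1884 CPM in the infused libraries, with no overlap. Of the 21 genes on the matricellular and matrix glycoprotein list, 6 rose and 0 fell, with a median of 0.90 and 0.69 without Control replicate 2. Their summed level was 1184 to 1575 CPM in the control libraries and 1853 to 4442 CPM in the infused libraries. This list differs from the class as named above, since not all called genes of that class are on it.

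Elastic fibre genes and enzymes of matrix assembly followed. Elastin, Eln, had 67.2, 36 and 66.5 CPM in the control libraries. It had 319, 179 and 363 CPM with Ang II alone, 141, 161 and 176 CPM with EHP-101, and 106, 198 and 109 CPM with losartan. In Eln the losartan and EHP-101 libraries overlapped, and the gene rose 3.26-fold (adjusted p = 0.0376). Ltbp2, which binds fibrillin, had 19.4, 7.43 and 16 CPM in the control libraries and 18.7 to 139 CPM in the infused libraries (4.59-fold, adjusted p = 0.0309). Of 17 elastic fibre and microfibril genes, 2 rose and 0 fell, with a median of 0.61, and 0.49 without Control replicate 2. The fibrillin Fbn2 stood at 1.40 on the log2 scale (adjusted p = 0.0612). Asporin, Aspn, a small proteoglycan that binds collagen, had 37 to 42.3 CPM in the control libraries and 61.3 to 220 CPM in the infused libraries (3.67-fold, adjusted p = 0.0183). It was the 1 of 10 small leucine-rich proteoglycans that passed, and Bgn and Ogn stood at 0.81 and 0.63 on the log2 scale (adjusted p = 0.129 and 0.138). Without Control replicate 2 the adjusted p values of Eln, Ltbp2 and Aspn were 0.205, 0.209 and 0.179.

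Lysyl oxidases crosslink collagen and elastin. Lox had 5.68, 4.52 and 5.63 CPM in the control libraries, with 61.3, 35.8 and 84.6 CPM with Ang II alone and 48.6, 52.1 and 63.6 CPM with EHP-101. With losartan it had 37, 21.7 and 9.82 CPM, and every infused library was above the control libraries. Lox rose 7.98-fold (95% interval of the log2 fold change 2.16 to 3.84, adjusted p = 0.0111). Loxl3 had 7 to 10.2 CPM in the control libraries, 24.3 to 41.6 CPM with Ang II alone or EHP-101, and 11.3 to 17.7 CPM with losartan (2.86-fold, adjusted p = 0.0111). Of 21 genes of collagen processing and crosslinking these 2 rose and 0 fell, with a median of 0.33, and 0.16 without Control replicate 2. Without Control replicate 2 Lox and Loxl3 had adjusted p values of 0.204 and 0.0934, with log2 fold changes of 2.90 and 1.37. Mmp2, a gelatinase, had 55.9 to 97 CPM in the control libraries and 109 to 275 CPM in the infused libraries (2.35-fold, adjusted p = 0.0309). It was the 1 of 23 matrix proteases and inhibitors that passed, and had an adjusted p of 0.0934 without Control replicate 2. Its activator Mmp14 stood at 0.86 on the log2 scale (adjusted p = 0.0615), and the inhibitor Timp1 at 1.58 (adjusted p = 0.131).

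Integrins are the cell's receptors for the matrix. Of 12 matrix-binding integrins 0 passed in edgeR, and 3 lay wholly above the control libraries, beside 2.30% of all tested genes. Their median log2 fold change was 0.41, and 0.20 without Control replicate 2. Their summed level was 758 to 826 CPM in the control libraries and 902 to 1048 CPM in the infused libraries. Itga11, a collagen receptor of fibroblasts, stood at 1.29 on the log2 scale (adjusted p = 0.126) and Itga5, a fibronectin receptor, at 0.34 (adjusted p = 0.147).

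Fibroblast identity markers were measured beside the matrix genes. Of 16 fibroblast markers, none of them at 0, 0 passed in edgeR. Their summed level was 2221 to 3538 CPM in the control libraries and 2566 to 3950 CPM in the infused libraries, which overlap. Their median log2 fold change was 0.22, with 0.41 in the group with Ang II alone, 0.03 with EHP-101 and 0.12 with losartan, and the median of the mean contrast was 0.08 without Control replicate 2. Pi16, a marker of adventitial fibroblasts, stood at 0.71 on the log2 scale (adjusted p = 0.0612), and Fap, a protease of activated fibroblasts, had 0.59 (adjusted p = 0.142). In such whole-tissue libraries, more cells of a type and more RNA per cell cannot be told apart. Of 13 smooth muscle and contractile genes 0 passed, with a median of 0.57 and 0.35 without Control replicate 2. Acta2, smooth muscle actin, stood at 0.31 on the log2 scale (adjusted p = 0.461).

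**Figure D3:**
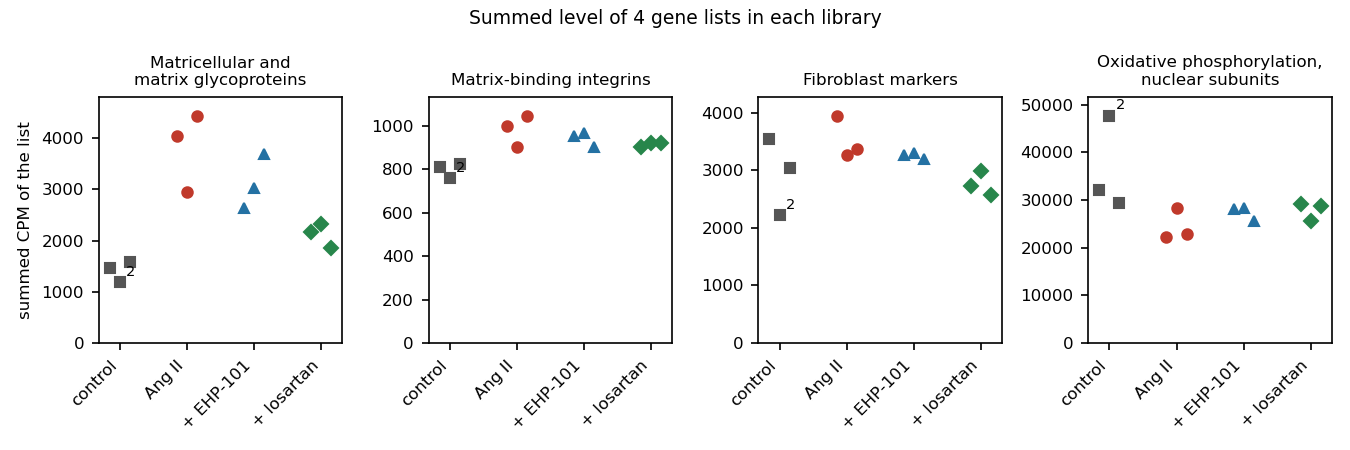
Summed CPM of 4 gene lists in each library, by group, with the point of Control replicate 2 marked 2. Matricellular genes (1853 to 4442 CPM infused) and integrins (902 to 1048 CPM) lie above every control library, and fibroblast markers overlap. The oxidative phosphorylation subunits lie below by a narrow margin, with 29130 CPM in losartan replicate 1 against 29374 CPM in Control replicate 3. Control replicate 2 lies far above the other control libraries in that list.

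Acute phase and signalling genes were examined next. Serpina3n, a protease inhibitor of the acute phase, had 16 ± 1.05 CPM (SD, n = 3) in the control libraries and 21.2 to 147 CPM in the infused libraries (adjusted p = 0.0826). Osmr, the oncostatin M receptor, stood at 0.78 on the log2 scale (adjusted p = 0.112), and Il6 itself had 1.98 (adjusted p = 0.217). Il6 was near the limit of detection in the control libraries, at 0.125 to 0.215 CPM. It had 5.28 CPM in Ang II replicate 3 and 0.187 to 0.744 CPM in every other infused library.

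Dio2, the deiodinase that makes active thyroid hormone in tissue, lies on chromosome 12 from 90724552 to 90738438 (ENSMUSG00000007682). It had 7.6, 6.94 and 8.3 CPM in the control libraries and 39.6, 23.6 and 39.1 CPM with Ang II alone. It had 22.5, 16.7 and 29.2 CPM with EHP-101 and 14.4, 14.3 and 11.2 CPM with losartan. The 3 infused groups stepped down in that order in their means, and Dio2 rose 2.86-fold over all of them (adjusted p = 0.0111). Fstl1, a secreted glycoprotein that binds TGF-beta family ligands (chromosome 16 from 37776873 to 37836514), had 167 to 183 CPM in the control libraries and 194 to 490 CPM in the infused libraries. It rose 1.79-fold (adjusted p = 0.0482) and was the 1 of 22 TGF-beta and BMP signalling genes that passed. Tgfb2 and Tgfb3, ligands of the family, stood at 0.83 and 0.92 on the log2 scale (adjusted p = 0.089 and 0.118), and Tgfb1 had -0.23 (adjusted p = 0.325), or -0.01 without Control replicate 2. Dio2 and Fstl1 had adjusted p values of 0.111 and 0.138 without that library. Of 12 CCN family and YAP target genes 0 passed, with Ccn2, a matricellular target of TGF-beta, at 1.33 (adjusted p = 0.115).

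The genes that fell are not known as matrix genes. Ano10, a member of the anoctamin membrane protein family, lies on chromosome 9 from 122175874 to 122294423 (ENSMUSG00000037949). It had 75.8, 78.5 and 56.7 CPM in the control libraries. It had 31.2, 40.3 and 35.9 CPM with Ang II alone, 32.9, 27.4 and 32 CPM with EHP-101, and 32.5, 40.3 and 43.9 CPM with losartan. Every infused library was below every control library, and the losartan libraries overlapped those of Ang II alone. Ano10 fell by 1.01 on the log2 scale (SE 0.12, 95% interval -1.27 to -0.74, adjusted p = 0.00832), and group values were -0.97 with Ang II alone, -1.19 with EHP-101 and -0.85 with losartan. It passed without each of 11 libraries, also without Control replicate 2 (adjusted p = 0.0326), and not without Control replicate 1 (adjusted p = 0.0698). Its adjusted p between the infused groups was 0.762, which does not show that the groups act alike.

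Armh4 (chromosome 14 from 49675952 to 49783383, ENSMUSG00000036242) had 24.8, 22.5 and 27 CPM in the control libraries. It had 17.8, 17.9 and 16.6 CPM with Ang II alone, 14.6, 11.8 and 13.9 CPM with EHP-101, and 19.8, 16.1 and 16.6 CPM with losartan. The infused libraries were all lower, with those of EHP-101 the lowest, and Armh4 fell by 0.63 on the log2 scale (adjusted p = 0.0309), with group values of -0.51 with Ang II alone, -0.88 with EHP-101 and -0.50 with losartan. Helt, a repressor of the Hes and Hey family named after its values were seen, was low throughout. It had 1.17 to 1.67 CPM in the control libraries and 0.35 to 0.843 CPM in the infused libraries, from as few as 8 reads, and fell by 1.39 (adjusted p = 0.0376). The adjusted p values of Armh4 and Helt were 0.0356 and 0.168 without Control replicate 2. Ift81, a gene of intraflagellar transport, had 52 to 62.2 CPM in the control libraries and 32.1 to 48.1 CPM in the infused libraries, without overlap. Its log2 fold change was -0.53 ± 0.10 and did not pass (adjusted p = 0.0612).

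The 18 higher genes were not equally high in the infused groups. In 18 of 18 the losartan group had the lowest mean of the 3, and in 16 the group with Ang II alone had the highest. Losartan replicate 3 was the lowest of the 9 infused libraries in 16 of the 18 genes, and losartan replicate 1 in the other 2. Among the infused libraries, losartan replicates 3 and 1 also had the lowest summed atrial markers, at 918 and 1418 CPM. Whether this bears on the order of the groups was not tested. The median log2 fold change against the shared controls was 2.46 with Ang II alone, 2.11 with EHP-101 and 1.29 with losartan. A test of any difference between the 3 infused groups, which does not use the control libraries, passed for 0 of 15336 genes in edgeR, with 1298 at an unadjusted p under 0.05 (8.46%) and 147 calls in DESeq2. In that edgeR test 17 of the 18 genes lay below 0.05 before adjustment, and the exception was Aspn at 0.0521. Both tests share one estimate of each gene's spread. Adjusted p values for the 18 ran from 0.232 to 0.594, so none of the 18 passed that edgeR test.

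**Figure D4:**
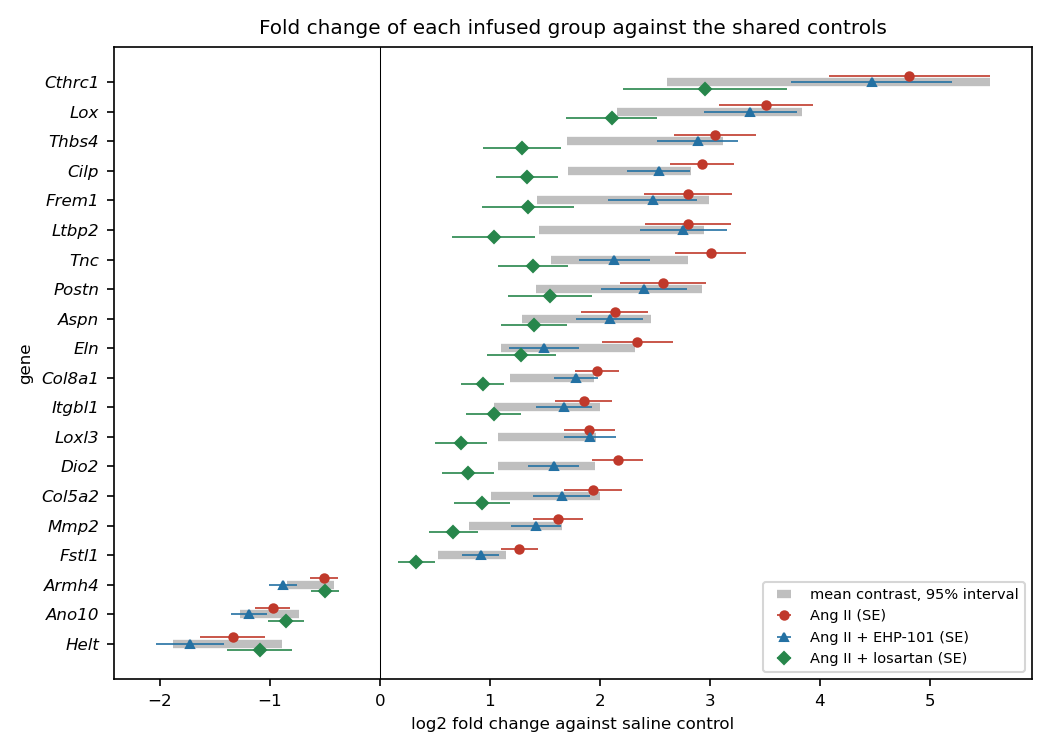
Log2 fold change of 20 of the 21 genes in each infused group against the shared control libraries, with points for the 3 groups and bars of 1 SE. Grey bars are the 95% intervals of the mean contrast, and the losartan diamonds lie lowest in all 17 higher genes drawn.

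Among these genes, evenness between groups also varied. Relative to its own mean change, Ano10 had the smallest spread of the 3 group values and Fstl1 the largest. Fstl1 had log2 fold changes of 1.27 with Ang II alone, 0.92 with EHP-101 and 0.33 with losartan. In Loxl3 the values were 1.91, 1.91 and 0.74, and in Ltbp2 2.80, 2.76 and 1.04. Tnc had 3.01, 2.13 and 1.39, a step at each group. With the group of Ang II alone left out of the contrast, so that 6 treated hearts stood against the 3 control hearts, 4 genes were higher and 1 lower, and all 5 were among the 21. Among them were Lox (log2 fold change 2.74, adjusted p = 0.0353), Cilp (1.94), Col8a1 (1.36) and Ano10 (-1.02), the last 3 each with an adjusted p of 0.0227.

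Heart muscle stress genes varied widely between libraries. Of 19 fetal and hypertrophy genes 0 passed in edgeR, and 3 lay wholly above the control libraries, beside 2.30% of all tested genes. Their median log2 fold change was 0.34, and 0.68 without Control replicate 2. The myosin heavy chain of the fetal ventricle, Myh7, had 224, 88.5 and 278 CPM in the control libraries. It had 838, 499 and 601 CPM with Ang II alone, 1721, 1128 and 1050 CPM with EHP-101, and 876, 595 and 302 CPM with losartan. All infused libraries were above the control libraries, and the log2 fold change was 2.01 ± 0.39 (adjusted p = 0.0746). Sprr1a, a stress-induced gene of cardiomyocytes, had 0.0417 to 0.269 CPM in the control libraries and stood at 3.76 on the log2 scale (adjusted p = 0.0612). Its lowest infused library, losartan replicate 3 at 0.0843 CPM, lay within the control range.

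The natriuretic peptide Nppb was highest in Control replicate 2. It had 139, 1111 and 116 CPM in the control libraries and 214 to 595 CPM in the infused libraries. On the log2 scale it stood at -0.27 (adjusted p = 0.80), but at 1.57 without Control replicate 2 (adjusted p = 0.114). Ankrd1, a stretch-responsive muscle gene, stood at 0.99 (adjusted p = 0.147), and at 1.54 without Control replicate 2 (adjusted p = 0.0326). The other natriuretic peptide, Nppa, had 0.52 (adjusted p = 0.601), or 0.28 without Control replicate 2, and ran from 0.09 to 1.02 without each library in turn. Nppa is also on the atrial marker list. It had 42.9 CPM in losartan replicate 3 and 628 CPM in Ang II replicate 1. Summed atrial markers, Nppa included, were 918 and 5359 CPM in those libraries. The part of atrial tissue in its values was not tested beyond the fit with the atrial score.

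Contraction, calcium and channel genes had medians near 0. Of 16 sarcomere genes, 18 calcium handling genes and 24 potassium, sodium and HCN channel genes, 0 passed in each list, with medians of -0.03, -0.10 and -0.11. These were 0.01, -0.15 and -0.16 without Control replicate 2. Scn4b, a sodium channel subunit, had 46.5, 72.4 and 67.7 CPM in the control libraries and 22.5 to 33.6 CPM with Ang II alone or EHP-101. With losartan it had 34, 56.8 and 51.9 CPM, which overlapped the control range, and its log2 fold change was -0.91 ± 0.17 (adjusted p = 0.0612). Atp2a2, the calcium pump of the sarcoplasmic reticulum, had -0.36 (adjusted p = 0.211). Casq1, a calcium store protein, had -0.66 (adjusted p = 0.153).

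Genes of oxidative metabolism had medians below 0, which moved with 1 control library. Of 37 nuclear subunits of oxidative phosphorylation, the respiratory chain and ATP synthase, 0 passed in edgeR. Wholly below the control libraries lay 7 of the 37, beside 2.16% of all tested genes. Their median log2 fold change was -0.48 with all libraries and -0.13 without Control replicate 2. Their summed level was 32120, 47707 and 29374 CPM in the control libraries and 22198 to 29130 CPM in the infused libraries, with no overlap. On the log2 scale Sdhc of complex II and Uqcrc1 of complex III stood at -0.49 and -0.50 (adjusted p = 0.147 for each), and at -0.27 and -0.29 without Control replicate 2.

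Fuel genes had medians closer to 0. Of 33 genes of fatty acid uptake and oxidation 0 passed, with a median of -0.27, and -0.16 without Control replicate 2. Esrra, a nuclear receptor that drives mitochondrial genes, had 145, 213 and 134 CPM in the control libraries and 105 to 131 CPM in the infused libraries, with no overlap. Its log2 fold changes were -0.51, -0.47 and -0.49 in the groups with Ang II alone, EHP-101 and losartan, and the mean contrast did not pass (adjusted p = 0.147). Without Control replicate 2, its highest library, the mean contrast was -0.26 (adjusted p = 0.412). Of 24 glucose uptake and glycolysis genes 0 passed, with a median of -0.21, and -0.07 without Control replicate 2. Pkm, the last enzyme of glycolysis, had -0.40 (adjusted p = 0.16), or -0.25 without that library.

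**Figure D5:**
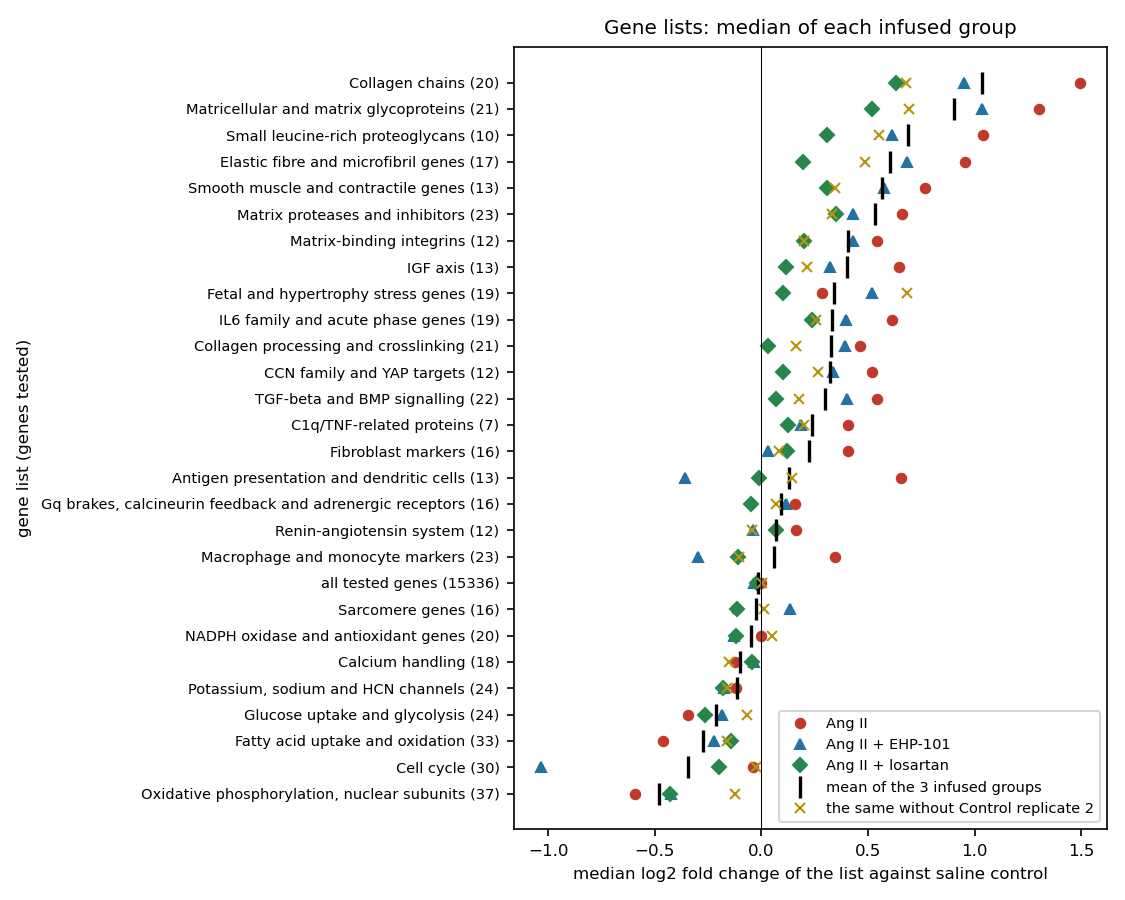
Median log2 fold change against saline control of 27 gene lists and of all tested genes, with the number of genes tested in parentheses. Points are the medians in each infused group, black ticks those of the mean contrast and crosses the same without Control replicate 2, which moves oxidative phosphorylation from -0.48 to -0.13.

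Ang II receptor and pathway genes were examined as the first step of the response. Of 12 renin-angiotensin genes 0 passed. Agtr1a, which encodes the main AT1 receptor, had 39.2, 39.5 and 40 CPM in the control libraries. It had 24, 31.9 and 22.6 CPM with Ang II alone, 34.5, 30.3 and 28.5 CPM with EHP-101, and 32.5, 31.5 and 30.4 CPM with losartan. Every infused library was lower, and the log2 fold change was -0.42 ± 0.11 (adjusted p = 0.135). The converting enzyme Ace had 0.56 (adjusted p = 0.164). Of 16 genes for brakes on Gq signalling, calcineurin feedback and adrenergic receptors 0 passed. In this list 2 genes lay wholly above the control libraries and 1 wholly below, beside 2.30% and 2.16% of all tested genes. Adra1b, an alpha-1 adrenergic receptor, had -0.44 (adjusted p = 0.137). Rgs5, a brake on Gq signalling in pericytes, had 0.47 (adjusted p = 0.147), and Plcb1, a phospholipase of the pathway, had 0.50 (adjusted p = 0.175), or 0.30 without Control replicate 2.

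Growth factor genes had some of the highest values without a call. Of 13 IGF axis genes 0 passed. The IGF carrier gene Igfbp2 stood at 3.58 on the log2 scale (adjusted p = 0.11), from 0.125 ± 0.11 CPM (SD, n = 3) in the control libraries. Igf1 had 0.73 (adjusted p = 0.114), with 30.7 to 64.2 CPM in the infused libraries and no overlap. Of 7 C1q/TNF-related genes 0 passed, and C1qtnf3 had 3.81 (adjusted p = 0.0612). Of 20 NADPH oxidase and antioxidant genes 0 passed, with the oxidase Nox4, a fibroblast source of hydrogen peroxide, at 1.98 (adjusted p = 0.108).

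Immune and dividing cells showed no calls in this contrast. Of 23 macrophage and monocyte markers tested 0 passed in edgeR, and their summed level was 548 to 624 CPM in the control libraries and 295 to 738 CPM in the infused libraries. The list's median was 0.06, and -0.10 without Control replicate 2, with group medians of 0.34 with Ang II alone, -0.30 with EHP-101 and -0.11 with losartan. Of the 23, 0 lay wholly above the control libraries, and 2 members, Folr2 and Timd4, markers of resident macrophages, lay wholly below them. Over all tested genes the shares were 2.30% above and 2.16% below. At an unadjusted p under 0.05 in edgeR, 2 of the 23 were higher and 3 were lower. Folr2 had 19.6, 23.3 and 14.2 CPM in the control libraries and 3.98 to 13.3 CPM in the infused libraries, and stood at -0.87 ± 0.19 on the log2 scale (adjusted p = 0.106). Timd4 had -1.02 (adjusted p = 0.144). Ccr2, the chemokine receptor of recruited monocytes, had 1.17 (adjusted p = 0.147) with overlapping libraries. Other members of the list, such as Lyve1, Cd163, Mrc1, Ly6c2 and Plac8, are not given singly. A shift between resident and recruited cells is therefore not shown. Of 13 antigen presentation genes 0 passed, with group medians of 0.65, -0.36 and -0.01. Of 30 cell cycle genes 0 passed, with a median of -0.34, and -0.03 without Control replicate 2. The group medians were -0.04 with Ang II alone, -1.03 with EHP-101 and -0.20 with losartan. Mcm2, part of the DNA replication helicase, had 13.1 ± 2.1 CPM (SD, n = 3) in the control libraries and 4.99 to 9.97 CPM in the infused libraries (log2 fold change -0.83, adjusted p = 0.0850). In the other 21 of 48 lists, atrial markers included, which cover 292 tested entries, 0 genes passed, and their medians ran from -0.37 to 0.52. The lowest, that of atrial markers, was -0.78 without Control replicate 2.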

How the data were processed

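The values were whole-number read counts per gene, as deposited by the authors, in 12 heart libraries. Per the labels, poly(A) RNA from 300 ng was made into TruSeq v2 libraries, a kit that does not mark strand, and read as 50 bp single ends. Per the submitters' processing notes, fastp 0.20.0, HISAT2 2.1.0, featureCounts 2.0.0, edgeR 3.30.0 and the build GRCm38 were used, and the annotation release is not given in the sources used here. Reads of overlapping genes on the other strand cannot be told apart, which touches 7 of the 21 called genes (Lox, Tnc, Aspn, Eln, Loxl3, Dio2 and Ltbp2). Symbols matched 47224 of 47729 genes, and positions are from GENCODE M21.

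Counts were fitted in R 4.3.3 with edgeR 4.0.16 (filterByExpr, TMM, robust quasi-likelihood, 1 mean per group over 12 libraries, common biological coefficient of variation 0.189). Two-sided F tests were adjusted by Benjamini-Hochberg over 15336 genes at 0.05. The SE is the absolute log2 fold change over the root of F, so it restates that test, and 95% intervals use it with the median 12.6 residual degrees of freedom. CPM values use TMM-scaled library sizes. Alternatives used DESeq2 1.42.0 and limma 3.58.1. In simulated counts of the same contrast over 15181 genes, 73 of 98 changes of 2-fold and 96 of 98 of 4-fold were called, with 7 false calls. These figures describe the simulated counts only. Whether they hold for the measured libraries, in which a control library stood apart and calls depended on single libraries, was not tested.

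The members, the 48 gene lists and the tests were chosen with earlier results of these data known. Named genes were up to 15 called genes in each direction with no overlap between the groups and a mean of at least 1 CPM. Predicted genes and pseudogenes were left out. To these were added up to 3 genes of smallest p from each of the 27 lists described, up to 8 called genes of smallest p between the infused groups, up to 8 called genes most even between those groups, and a fixed set of 16 genes. Same-numbered libraries were checked for pairing by correlation, and 6 of 12 correlated best with their own number. Pairing was not tested, so the check does not settle whether the titles' numbers pair the libraries. The main fit used no pairing. Some genes that the rule names are not reported here.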

Additional observations from a re-analysis of the deposited data

Results flagged for a closer look

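Among the 21 called genes, 1 had an infused library far from the other 8 on the log2 scale. In Itgbl1 the gap between losartan replicate 3, at 23.7 CPM, and its nearest neighbour was 0.522 of the whole range of the 9 infused libraries, above the limit of 0.493 for 9 values. The 9 libraries hold 3 differently treated groups, and chance passes this limit in about 1 of 20 such sets.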

How the results depend on the processing

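The counts of higher and lower genes, 18 and 3, moved with the setting, and causes were not tested. RLE factors and limma-voom gave 18 and 3, library size alone 11 and 1, and a mean of at least 5 CPM 17 and 2. DESeq2 gave 303 and 180, limma-voom with quality weights 879 and 724, no filter on low counts 71 and 37, and the atrial score as a covariate 193 and 77. The 2-group model gave 0 and 1. With only EHP-101 and losartan in the contrast the counts were 4 and 1, with only Ang II alone and losartan 11 and 1, and with only Ang II alone and EHP-101 115 and 20. Keeping only changes of 1 or more on the log2 scale left 17 and 2. Leaving out each library in turn gave 0 to 39 higher and 0 to 4 lower genes. Between the infused groups the count of 0 became 147 in DESeq2, 379 with quality weights and 32 with no filter, and 0 to 1 without each library.

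The replicate block from the titles' numbers gave 15 higher and 5 lower genes and 0 between the infused groups. The deviations of same-numbered libraries correlated from -0.327 to 0.33 over 18 pairs, with 4 above 0.1, and 6 of 12 libraries correlated best with their own number. The log2 fold change of Nppb, -0.27, reversed to 0.47 in limma-voom, 1.34 with quality weights, 0.20 with the replicate block, 0.17 with the atrial score and 1.57 without Control replicate 2. Without each library in turn it ran from -0.72 to 1.57. Of the other single-gene values under each alternative, 2039 kept their side of the threshold, 180 lost it and 189 gained it. Most of the 97 named genes had no call to lose, so the 2039 do not measure how stable the calls were. Of the 21 calls, 21 were kept in DESeq2, 1 in the 2-group model and 0 without Control replicate 1. In the lists, 18 of the medians moved by more than their spread while 1180 did not. Depth limits genes such as Cthrc1 and Helt, with as few as 5 and 8 reads in a library.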
